A study of Mus musculus with 6 samples.

Results

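The RNA levels of 10 genes of the Trp and Piezo families of sensory ion channels were measured in keratinocytes of denervated and normal mouse back skin: Trpv1, Trpv2, Trpv3, Trpv4, Trpv6, Trpc1, Trpm4, Trpm7, Piezo1 and Piezo2. They were chosen by symbol from the 24982 rows of a raw gene count matrix, and all 10 had a row. RNA was read in 6 libraries from 3 mice, numbered 890, 892 and 899, each of which gave 1 library from its denervated and 1 from its normal side. All mice carried Lgr6-EGFP-Ires-CreERT2, a knock-in that makes EGFP and a tamoxifen-dependent Cre wherever the stem cell gene Lgr6 is on, together with R26loxP-stop-loxP-tdTom, a red reporter that Cre switches on for good. Each received 20 µg of tamoxifen at postnatal day 42. The cutaneous nerves of the left back were then removed through a midline incision, while those of the right back were left intact, with no sham operation described. Ketamine and xylazine at surgery and Meloxicam afterwards reached both sides alike. Dorsal skin keratinocytes were sorted 4 weeks after surgery for tdTomato and for CD49f, the integrin alpha 6 of basal cells, and the design text adds Lgr6-GFP. Both sides carry every allele, and the reporter marks the Lgr6 lineage rather than cells that still express Lgr6. The design does not separate nerve loss from the operation or from the left and right of the body, which therefore cannot be told apart, and the age beyond the day of tamoxifen is not given.

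Trp channels are cation channels of the cell membrane that open to temperature, chemicals, stretch, lipids or emptied calcium stores, and Piezo channels are pores opened by membrane tension. In skin they are best known from sensory nerve endings, which use them to feel heat, cold, itch and touch. Keratinocytes carry a set of their own, in which calcium entry bears on barrier formation, proliferation, migration and the release of signals that reach nerve endings. Trpv3, a warmth-activated channel found mainly in keratinocytes, works there with the receptor Egfr and its ligand Tgfa, and Piezo1 is the mechanically gated channel of many cells that are not neurons.

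Of the 10 genes, Trpv3 and Piezo1 were higher on the denervated side, the 2 channels that lie next to each other in level. Trpv3 rose 1.48-fold and Piezo1 rose 1.45-fold, each in 3 of 3 animals, as did 19.3% of all tested genes whatever their test. The other 5 genes with enough reads for a test did not pass it, and the remaining 3, Trpv1, Trpv2 and Piezo2, were at the edge of detection on both sides. With the animal as block, edgeR's quasi-likelihood test (p adjusted by Benjamini-Hochberg over all 12310 tested genes, threshold 0.05) called 2 of the 7 tested channel genes, both higher, against 3.46% of all tested genes called, 2.88% higher and 0.577% lower. The channel genes were chosen with earlier results of these data known, so these shares are a description and no test of the family. Without the animal block edgeR called neither Trpv3 nor Piezo1, and no other gene, although 12.5% of genes then had an unadjusted p under 0.05, 7.55% on the higher side. DESeq2 with the block called both, as it did 8.39% of the 5866 genes to which it gave an adjusted p (7.65% higher). Of the 7 tested channel genes, 3 had an adjusted p in that fit. EdgeR with library totals in place of TMM also called both (2.36% of genes called, 1.4% higher). The libraries are bulk samples of sorted cells, so fewer cells of a type and less RNA per cell cannot be told apart.

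**Figure D1:**
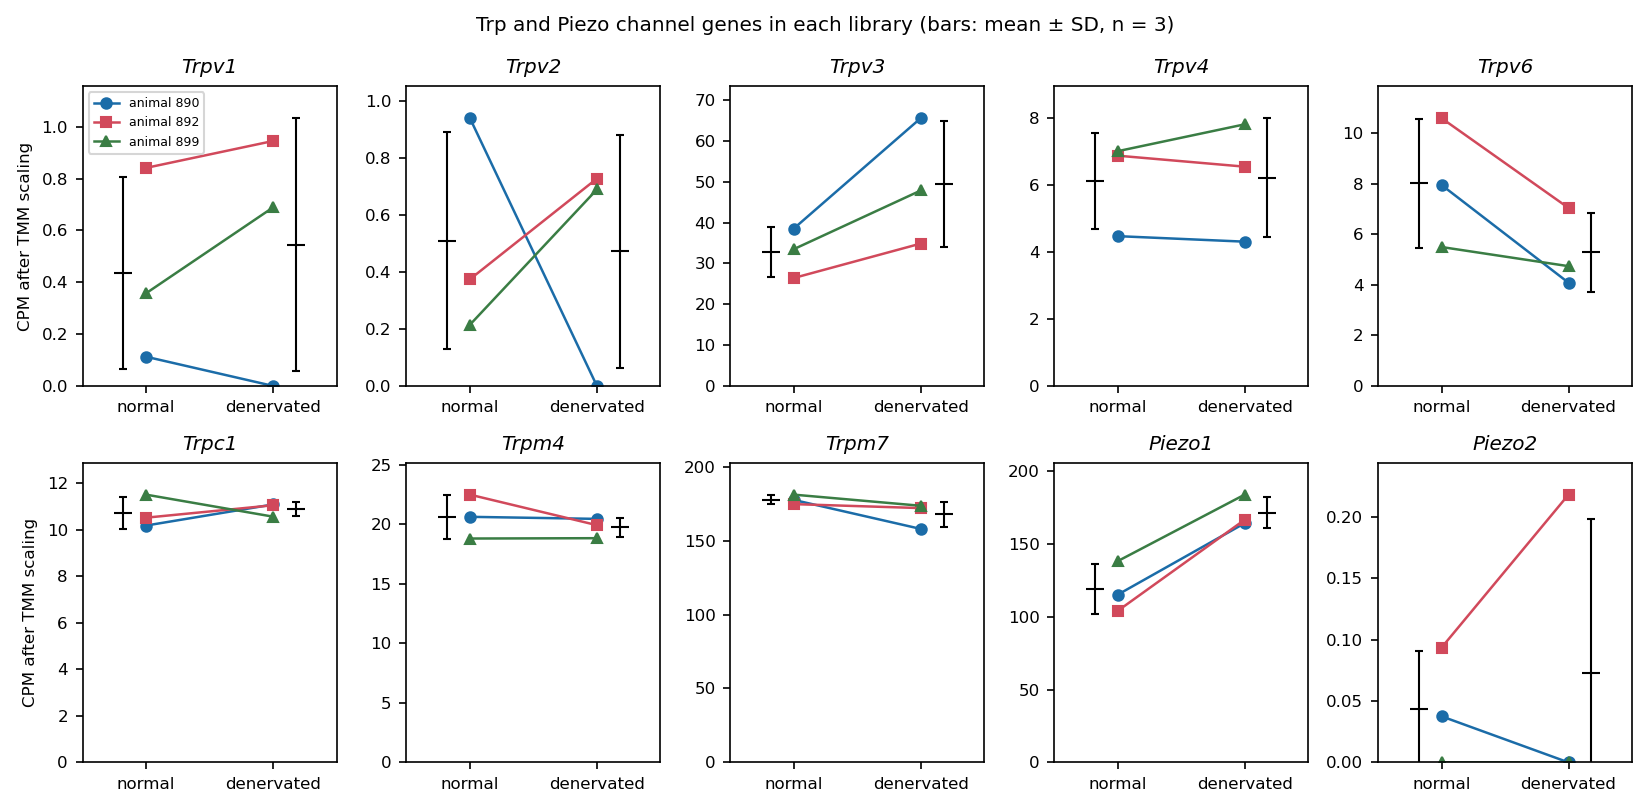
Level of each channel gene in CPM (counts scaled to the total of the library) after TMM scaling, on the normal and the denervated side. Each line joins the 2 sides of 1 animal, the bars give mean ± SD of 3 libraries, and each panel has its own axis from 0. All 3 lines climb for Trpv3 and Piezo1 and all 3 descend for Trpv6 and Trpm7, while Trpv1, Trpv2 and Piezo2 stay under 1 CPM.

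Total counts ran from 9610071 to 26167593 per library, and a count of 3 in a library corresponds to 0.113 to 0.323 CPM. The first principal component (36.5% of the variance) set the animals apart, with denervated 890 at 37.6 and normal 890 at 9.73, the libraries of animal 892 at -0.944 and -0.711, and those of animal 899 at -21.1 and -24.5. The label of basal cells was checked on 7 basal keratinocyte markers, Krt5, Krt14, Itga6 and Lgr6 among them, which summed to 40296 to 46247 CPM over the 6 libraries and of which none passed the test. Suprabasal markers summed to 12293 to 12945 CPM on the normal and 10016 to 13020 CPM on the denervated side, with none of 9 called. Of these 9 markers, 2 had log2 fold changes above 0 (median -0.16), and the sum was higher in 1 of 3 animals. With library totals in edgeR, and with DESeq2 and the block, 1 of them was called lower, and 2 were without a filter on low counts. Of 13 sensory neuron markers 5 were at 0 in every library, Scn9a and Scn10a among them, and the list summed to 2.06 to 3.12 CPM on the normal and 1.08 to 2.18 CPM on the denervated side. Merkel cell markers summed to at most 1.58 CPM, with Krt20 at 0 throughout. Myeloid and Langerhans markers summed to 85.4 to 151 CPM on the normal and 117 to 158 CPM on the denervated side, and T cell markers to 105 to 129 and 93.2 to 160 CPM, with none called in either list. All 7 tested myeloid and Langerhans markers had log2 fold changes above 0 (median 0.24), and their sum was higher in 3 of 3 animals. Without animal 890, 2 of them were called higher. The 3 tested T cell markers were also above 0 (median 0.23), with the sum higher in 2 animals. The 10 Schwann cell markers summed to 199 to 216 CPM on the normal and 249 to 302 CPM on the denervated side, with 5 tested. The sum rested on 2 that were called higher, Mbp and Pmp22, which other cells also express. Of all tested genes, 2.88% were called higher. The call of Mbp was lost without animal 892 (edgeR, adjusted p = 0.0751), and both calls were lost without the animal block (0.146 and 0.187). The other 3 tested Schwann cell markers had log2 fold changes below 0 and did not pass. The median of the 5 was -0.32, and Sox10, which defines the lineage, was at most 0.0467 CPM. Endothelial, fibroblast, smooth muscle and mast cell markers each summed to at most 8.41 CPM in any library with none called, melanocyte markers summed to 12.6 to 24.3 CPM with none called, and bulge and hair germ markers summed to 4752 to 6035 CPM on the normal and 4559 to 5306 CPM on the denervated side, and the sum was lower there in every animal. Of those 6 markers 1, Sox9, was called higher, a call lost with library totals (edgeR, adjusted p = 0.0942) and without animal 892 (0.0726) or 899 (0.108). The part of any of these cells in the channel values was not tested.

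The DNA just before the start of the 2 genes that rose is shown here because they passed the test together, and it lets their promoters be read side by side. The letters come from RefSeq, build GRCm38.p6, with a window for 8 of the 10 genes, and run 5′ to 3′ on the gene's own strand. The first is the 250 bases upstream of Piezo1 (chr8:122551330-122551579, minus strand), with a GC box (GGGCGG) and a TATA box (TATAAA) in capitals. The second is the 118 bases upstream of the annotated start of Trpv3 (chr11:73267270-73267387, plus strand), which hold none of the motifs searched. The last is 29 bases of Trpv3 (chr11:73267428-73267456, plus strand), with a match to the AP-1 motif in capitals.
Piezo1 upstream: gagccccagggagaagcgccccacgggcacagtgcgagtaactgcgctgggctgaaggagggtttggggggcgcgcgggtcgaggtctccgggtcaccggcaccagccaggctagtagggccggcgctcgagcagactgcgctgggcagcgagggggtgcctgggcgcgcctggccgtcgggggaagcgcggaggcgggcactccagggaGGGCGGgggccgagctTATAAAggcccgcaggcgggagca
Trpv3 upstream: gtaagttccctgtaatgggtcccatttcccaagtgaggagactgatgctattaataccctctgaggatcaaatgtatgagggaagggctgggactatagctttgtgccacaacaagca
Trpv3 AP-1 match: gggtgtggaggTGACTCAcgcaggacacg

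The 2 windows differed in base composition. The Piezo1 window was 74% G and C with 26 CpG dinucleotides, as in the promoters of many broadly expressed genes, where the median of 32841 windows was 52.4% and 6. Its GC box began 40 bases and its TATA box 24 bases before the start. The full 250-base Trpv3 window was 54.4% G and C with 3 CpG, and its AP-1 match began 81 bases before the RefSeq start, in a stretch that the GENCODE annotation, whose start lies 132 bases further upstream, counts as exon. Motifs were searched on both strands of 250 bases: AP-1 (TGANTCA) stood in 6.75% of all windows, TEAD (GGAATG) in 12.6%, the GC box in 32.7% and the TATA box in 12.4%. Neither gene had a TEAD match. Among the channel genes that did not pass, Trpm7 had 26 CpG and no motif match, Trpv4 had 22 CpG and 2 GC boxes, Trpc1 had 17 CpG and 3 GC boxes, and Trpv6 had 1 CpG and no match. A match describes the letters and is no evidence of binding.

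Levels between genes were compared in the deposited TPM, a scaled transcript number that takes transcript length into account. Trpm7, which joins an ion channel to a protein kinase and passes magnesium, zinc and calcium, was the most abundant at 46.7 ± 1.38 TPM on the normal side (SD, n = 3). Piezo1 followed at 21.3 ± 3.87 TPM and Trpv3 at 19.2 ± 4.17 TPM, and the libraries of these 2 overlapped. Trpm4, a channel opened by calcium that itself passes sodium and potassium, stood at 7.84 ± 0.684 TPM. Trpc1, a subunit of receptor- and store-operated channels, stood at 4.79 ± 0.307 TPM, Trpv6, a calcium-selective channel open at rest, at 4.40 ± 1.27 TPM, and Trpv4, a channel opened by warmth and swelling, at 3.02 ± 0.670 TPM. Trpc1 overlapped with Trpv6 and Trpv6 with Trpv4, while the steps from Trpm7 to Piezo1, from Trpv3 to Trpm4, from Trpm4 to Trpc1 and from Trpv4 to Trpv2 separated all libraries. Trpv2 at 0.310 ± 0.224 TPM and Trpv1 at 0.194 ± 0.151 TPM overlapped, and Piezo2 was last at 0.00705 ± 0.00749 TPM.

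The order of the 10 means was the same on the denervated side, where Trpm7 stood at 43.3 ± 4.11, Piezo1 at 30.6 ± 3.87 and Trpv3 at 28.1 ± 7.59 TPM (SD, n = 3). Piezo1 and Trpv3 overlapped there too, and both stayed below Trpm7 and above Trpm4 in every library. Trpc1 no longer overlapped with Trpv6, which stood at 3.02 ± 0.899 TPM. The channels known from pain and touch neurons, Trpv1 and Piezo2, kept the last places, and Piezo2 overlapped with Trpv1 on this side.

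**Figure D2:**
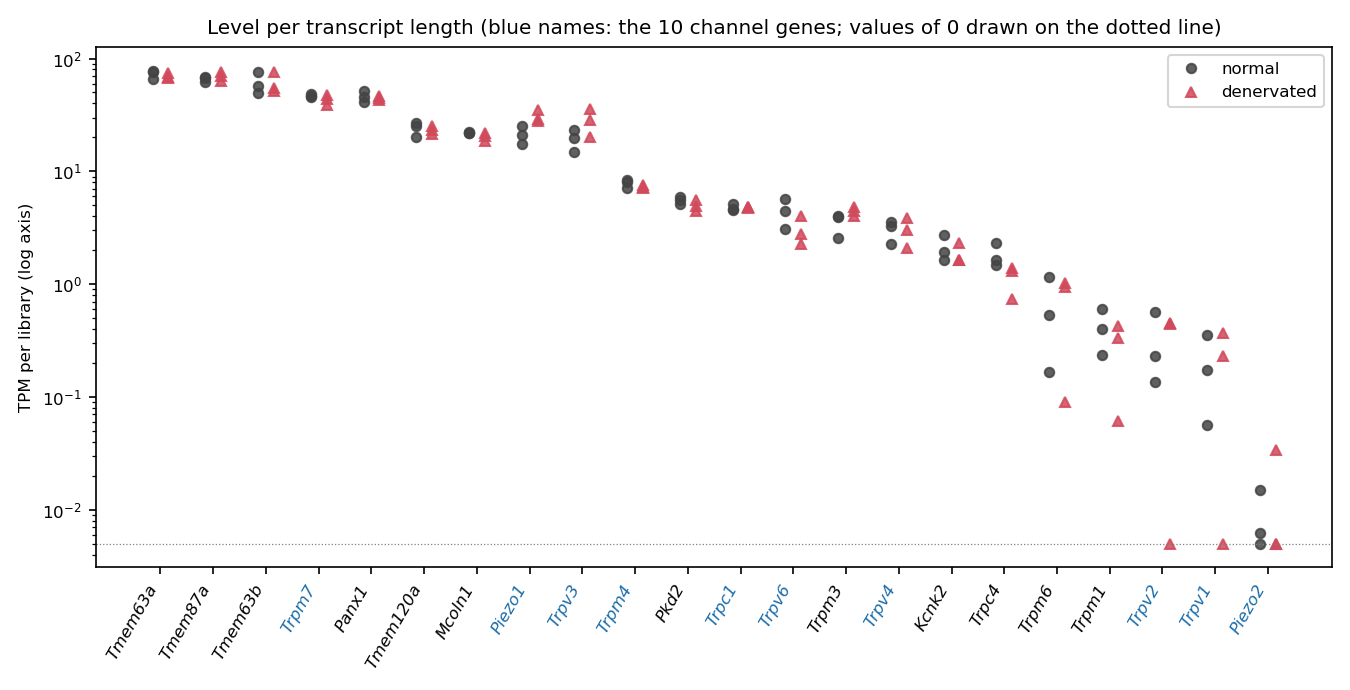
Level per transcript length in TPM on a log axis, 1 point per library, for the 10 channel genes (blue names) and the tested genes of 2 lists of relatives, ordered by their level on the normal side. Circles are normal and triangles denervated libraries, and values of 0 are drawn on the dotted line. Trpm7, Piezo1 and Trpv3 lead the 10 genes, and Trpv2, Trpv1 and Piezo2 lie below 1 TPM.

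Trpv3 is the keratinocyte channel for warmth, and mutations that keep it open cause hair loss and thickened, itching skin. It lies on chromosome 11 (chr11:73267388-73300363, mm10, plus strand). Its level was 38.6, 26.4 and 33.5 CPM on the normal side of animals 890, 892 and 899 and 65.6, 34.9 and 47.9 CPM on their denervated side. The denervated library was the higher in every animal, but denervated 892 lay below normal 890, so the groups overlapped. Animal 890 was the highest and animal 892 the lowest on both sides. The mean went from 32.8 ± 6.08 to 49.5 ± 15.4 CPM (SD, n = 3), a log2 fold change of 0.57 ± 0.10 (SE, 95% interval 0.35 to 0.78, adjusted p = 0.0106 by edgeR with the block).

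Within animals the log2 differences of Trpv3 were 0.77, 0.40 and 0.52. Without animal 890, whose denervated library had the highest score on the first component, the log2 fold change was 0.46 (edgeR, adjusted p = 0.0132), and the call held without each of the other animals. It was lost without the animal block, where the log2 fold change was 0.58 with an SE of 0.21 and an adjusted p of 0.302. In the authors' deposited table Trpv3 had a log2 fold change of 0.57 with an adjusted p of 0.00486, where 7.27% of 6752 genes with an adjusted p were called, 6.59% higher. That table comes from the same libraries, and its columns do not state whether the authors' fit used the pairing. By p, Trpv3 ranked 75 of 12310 genes, and its change was above the median of 0.43 over all genes called higher. Salmon's estimated counts were 0.803 of the matrix counts in the normal libraries and 0.801 in the denervated ones, so the share differed little between the sides.

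Piezo1 turns stretch of the cell membrane into calcium entry and is known in keratinocytes for its part in migration and wound closure. It lies on chromosome 8 (chr8:122481698-122551329, mm10, minus strand). Its level was 115, 104 and 138 CPM on the normal side and 164, 166 and 184 CPM on the denervated side, in the order 890, 892 and 899. Every denervated library lay above every normal one, and animal 899 was the highest on both sides. The mean went from 119 ± 17.4 to 171 ± 10.7 CPM (SD, n = 3), a log2 fold change of 0.53 ± 0.078 (SE, 95% interval 0.37 to 0.70, adjusted p = 0.00516 by edgeR with the block). The differences within animals were 0.51, 0.68 and 0.41, and the call held without each animal in turn, with log2 fold changes from 0.48 to 0.60.

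By p, Piezo1 ranked 21 of 12310 genes. Without the animal block its log2 fold change was 0.53 with an adjusted p of 0.155, so this call too was lost. The authors' deposited table gave Piezo1 a log2 fold change of 0.56 and an adjusted p of 8.80e-06. Piezo1 shares 2441 of its 9935 exon bases (24.6%), at chr8:122481698-122484138, with Ctu2, a tRNA-modifying enzyme gene on the opposite strand. The kit keeps the strand, but whether the counting used it is not given in the sources used here. Ctu2 itself stood at 22.5 ± 1.44 and 27.9 ± 5.76 CPM (SD, n = 3; log2 fold change 0.29 ± 0.12 SE, edgeR, adjusted p = 0.188), with 2392 counts in all against 13436 for Piezo1. The part of Ctu2 reads in the Piezo1 values was not tested.

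**Figure D3:**
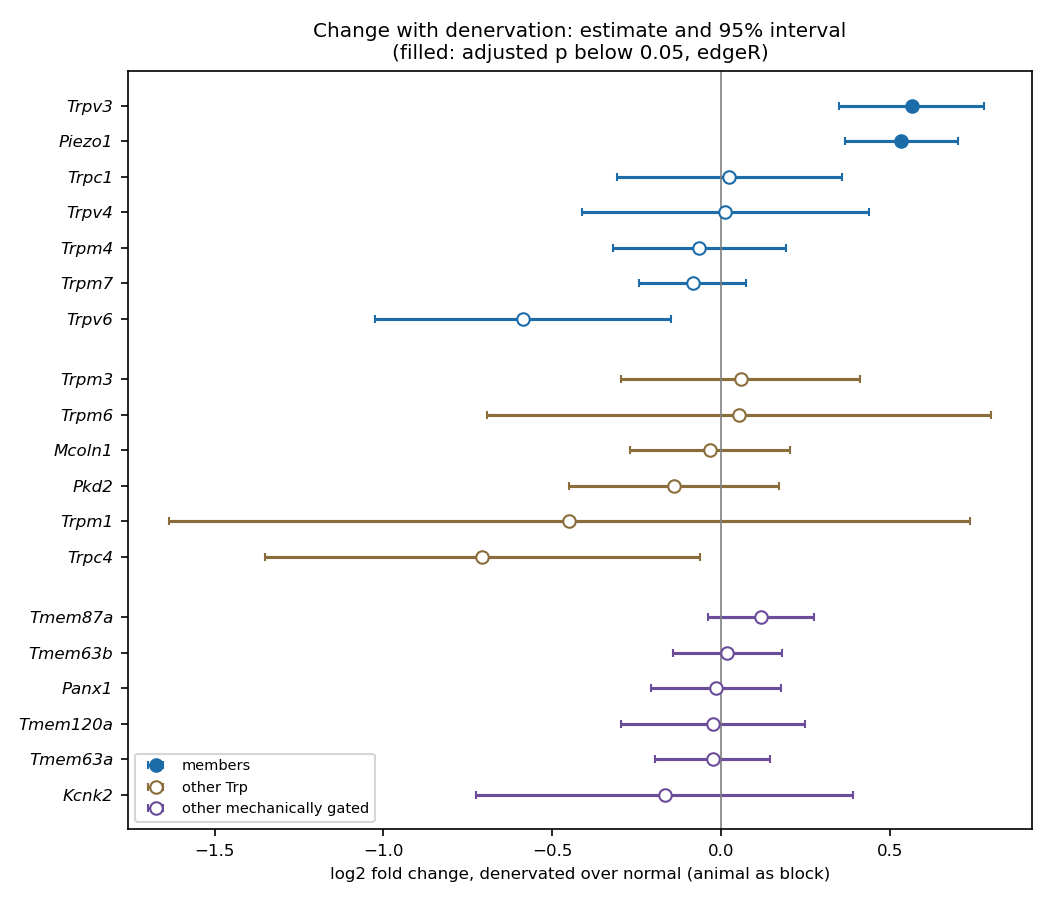
Log2 fold change, denervated over normal with the animal as block, with its 95% interval, for the tested channel genes and the tested genes of 2 lists of relatives. Filled points passed the test (edgeR, adjusted p below 0.05). Trpv3 and Piezo1 alone are filled, the interval of Trpv6 lies below 0, and the interval of Trpm7 is the narrowest of the channel genes.

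Trpv6 takes up calcium in gut, placenta and other epithelia, where vitamin D raises it, and in keratinocytes it has been tied to differentiation. Its level was 7.96, 10.6 and 5.50 CPM on the normal and 4.09, 7.05 and 4.74 CPM on the denervated side. The denervated library was the lower in 3 of 3 animals, as for 21.4% of all tested genes, and the groups overlapped. The log2 fold change was -0.59 ± 0.20 (SE, 95% interval -1.03 to -0.15), and it did not pass the test (edgeR, unadjusted p = 0.0126, adjusted p = 0.138). Of all genes, 7.86% were lower at an unadjusted p under 0.05. The estimate for Trpv6 was as large in size as those for Trpv3 and Piezo1, and it rested on 713 counts over the 6 libraries against 3778 for Trpv3 and 13436 for Piezo1.

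Trpm7 is needed for growth in most cells, and it varied least among the channel genes on the normal side. It was measured at 178, 175 and 181 CPM on the normal side and at 158, 172 and 174 CPM on the other. Every denervated library lay below every normal one in CPM, with the lowest value in animal 890. In TPM the groups overlapped, as denervated 899 at 47.1 lay above normal 892 at 45.3 and normal 899 at 46.8. The log2 fold change was -0.084 ± 0.074 (SE, 95% interval -0.24 to 0.075, edgeR, adjusted p = 0.587), so that the interval excludes a change as large as that of Trpv3 or Piezo1 in either direction. Of the 7 tested channel genes, Piezo1 alone did not overlap in CPM with the denervated side higher (9.76% of all tested genes) and Trpm7 alone with it lower (9.21%).

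Trpm4, Trpc1 and Trpv4 did not pass the test, and their intervals bound what could have been missed. Trpm4 stood at 20.6, 22.5 and 18.8 CPM on the normal and 20.4, 19.9 and 18.8 CPM on the denervated side, with a log2 fold change of -0.064 (95% interval -0.32 to 0.19, edgeR, adjusted p = 0.822). Trpc1 stood at 10.2, 10.5 and 11.5 CPM against 11.1, 11.05 and 10.6 CPM, with a log2 fold change of 0.024 (-0.31 to 0.36, adjusted p = 0.951). Trpv4, which helps to seal keratinocyte junctions, overlapped between the sides like the other 2 and followed the animal. It stood at 4.47, 6.87 and 7.001 CPM on the normal and 4.30, 6.54 and 7.80 CPM on the denervated side, with animal 890 the lowest and animal 899 the highest of each. Its log2 fold change was 0.013 (-0.41 to 0.44, edgeR, adjusted p = 0.980). The signs of these 3 estimates changed under other settings, so no direction is given for them. All 3 intervals exclude a rise as large as the estimate for Trpv3 and Piezo1, and the one for Trpv4 leaves room for changes of up to 0.44 on the log2 scale.

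Trpv1, Trpv2 and Piezo2 did not reach the minimum of 10 counts in enough libraries and were not tested. Trpv1, the heat and capsaicin receptor of pain neurons, lies 6145 bases from Trpv3 on the same strand of chromosome 11 (chr11:73234292-73261242). It had 3, 18 and 5 counts on the normal and 0, 13 and 9 counts on the denervated side, which is 0.113, 0.841 and 0.357 against 0, 0.945 and 0.688 CPM. The higher counts were those of animal 892 on both sides, and the groups overlapped. Its neighbour Trpv3 was at 26.4 CPM or more in the same libraries.

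Trpv2, a channel opened by strong heat and stretch in neurons, muscle and immune cells, had 25, 8 and 3 counts in the normal and 0, 10 and 9 in the denervated libraries (0.939, 0.374 and 0.214 against 0, 0.727 and 0.688 CPM). Animal 890 gave both its highest and its lowest value, and the groups overlapped. The 0 counts of Trpv1 and Trpv2 in the denervated library of animal 890, the shallowest of the 6, allow up to 0.323 CPM. Piezo2, the touch receptor channel of sensory neurons and Merkel cells, had 1, 2 and 0 counts in the normal and 0, 3 and 0 in the denervated libraries, and its highest level was 0.218 CPM. A difference between the sides was not detectable at this depth for these 3 genes.

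The other members of the same channel families showed no call. Of 20 other Trp genes, 7 had no count in the matrix in any library, among them Trpa1, the irritant channel, and Trpm8, the cold channel, both named for their role after their values were seen. With 3 counts as the limit, that allows up to 0.323 CPM in the shallowest library. Of the 6 tested, none passed, where 3.46% of all tested genes were called. Their median log2 fold change was -0.086 against -0.024 over all tested genes. Trpc4, a relative of Trpc1, had the smallest p with a log2 fold change of -0.71 (edgeR, adjusted p = 0.228), and next came Pkd2, the polycystin of cilia and the endoplasmic reticulum, with -0.14 (adjusted p = 0.654). Of 14 other channels reported to open with tension or to act in mechanical sensing, 6 were tested and none passed, with a median of -0.018. Tmem87a, at 65.6 ± 3.08 TPM on the normal side (SD, n = 3), had a log2 fold change of 0.12 (edgeR, adjusted p = 0.416), and Kcnk2, a potassium channel opened by stretch, had -0.17 (adjusted p = 0.783). Counted with these 6, Piezo1 was the 1 gene called, where 3.46% of all tested genes were called. At that share, no call among 6 genes says little about them.

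Of 21 proteins that bind or tune these channels, which include stomatins, calmodulins, Pacsin3 of Trpv4 and Mdfi, a Piezo subunit, 17 were tested and 1 passed, near the share of 3.46% over all tested genes. Homer1, a scaffold that links Trpc channels to calcium stores, was at 145, 134 and 163 CPM on the normal and 212, 170 and 182 CPM on the denervated side. Its groups did not overlap, and it rose by a log2 fold change of 0.35 ± 0.084 (SE, edgeR, adjusted p = 0.0382). The list's median was 0.066. Mdfi was at a log2 fold change of 0.43 and did not pass (edgeR, adjusted p = 0.0623).

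Trpv3 signals in keratinocytes with Egfr, which Tgfa activates and Adam17 helps by freeing Tgfa, and the transglutaminases that crosslink the barrier act downstream. Of these 9 genes all were tested and 2 passed, both higher, with a median of 0.071, where 2.88% of all tested genes were called higher. Egfr was at 267, 252 and 274 CPM on the normal and 344, 313 and 320 CPM on the denervated side, without overlap, a log2 fold change of 0.30 ± 0.075 (SE, edgeR, adjusted p = 0.0420). Tgfa was at 87.8, 89.4 and 73.6 against 137, 120 and 82.1 CPM, a log2 fold change of 0.41 ± 0.091 (SE, edgeR, adjusted p = 0.0272). In Tgfa the groups overlapped, because denervated 899 lay below the normal libraries of the other animals. Among the other Egfr ligands in the list, Areg stood at a log2 fold change of -0.36 (edgeR, adjusted p = 0.158) and Ereg at -0.39 (adjusted p = 0.0700). The ligand Hbegf and Adam17 did not pass either, and 5 of the 9 genes had a log2 fold change above 0. Without animal 892 neither Egfr nor Tgfa passed, and Ereg was then lower at a log2 fold change of -0.55 (edgeR, adjusted p = 0.00708). The transglutaminases Tgm1, Tgm3 and Tgm5 did not pass.

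Among 32 genes of calcium entry, stores and pumps, 26 were tested and none passed, where 3.46% of all tested genes were called. Their median was -0.060. The smallest p belonged to Stim2, a calcium sensor of the endoplasmic reticulum, with a log2 fold change of 0.32 (edgeR, adjusted p = 0.0665), and then to Atp2b1, a calcium pump of the cell membrane, with 0.21 (adjusted p = 0.139). Of 23 genes that respond to calcium inside the cell, 19 were tested and 2 passed, both higher, with a median of -0.023, where 2.88% of all tested genes were called higher. Nfatc1, a transcription factor that calcium and calcineurin send to the nucleus and that is known for keeping hair follicle stem cells at rest, was at 106, 114 and 141 CPM on the normal and 151, 157 and 180 CPM on the denervated side. Its groups did not overlap, and it rose by 0.44 ± 0.075 on the log2 scale (SE, edgeR, adjusted p = 0.00977). Capn2, the catalytic subunit of a calpain protease, was at 40.0, 41.3 and 40.1 against 73.9, 52.1 and 47.7 CPM, a log2 fold change of 0.49 ± 0.12 (SE, edgeR, adjusted p = 0.0336). Its 3 normal libraries lay close together, and animal 890 had the highest denervated value.

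**Figure D4:**
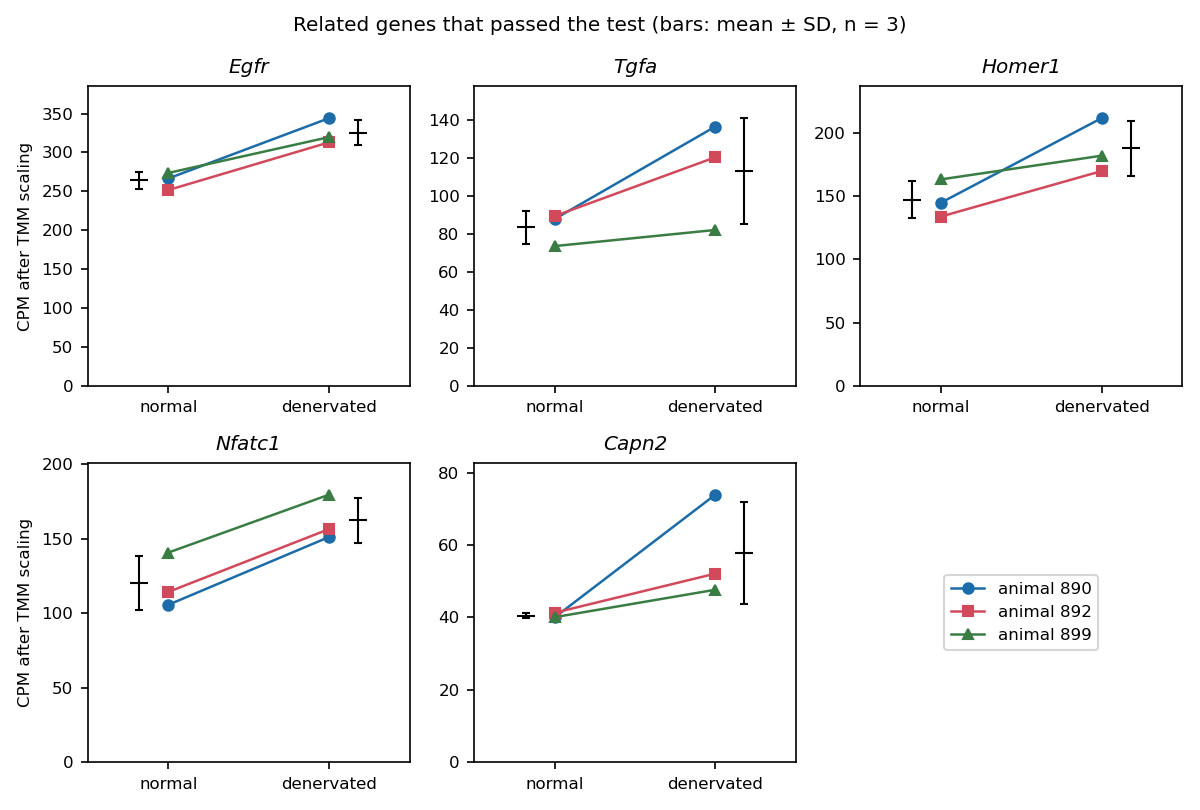
Egfr, Tgfa, Homer1, Nfatc1 and Capn2, related genes that passed the test, in CPM after TMM scaling on the normal and the denervated side. Each line joins the 2 sides of 1 animal and the bars give mean ± SD of 3 libraries. All lines climb, and that of animal 899 is the flattest in each of the 5 panels.

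Of the 5 calls of Egfr, Tgfa, Homer1, Nfatc1 and Capn2, 4 were lost without 1 animal. None of the 5 passed without the animal block. Without animal 890, Egfr, Tgfa, Homer1 and Capn2 no longer passed (edgeR, adjusted p = 0.139, 0.0568, 0.146 and 0.164), and without animal 892 Egfr, Tgfa and Homer1 no longer did (adjusted p = 0.198, 0.0528 and 0.0829). Nfatc1 passed without each animal in turn. Scaling to library totals instead of TMM ended the calls of Egfr, Tgfa, Homer1 and Capn2 (adjusted p = 0.0873, 0.0570, 0.0768 and 0.0665) but not those of Trpv3 and Piezo1.

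The pattern over the 6 libraries differed between the 2 channels that rose. Likeness was measured as the root mean square distance of log2 CPM profiles, each centred on its own mean, over 8608 genes of at least 10 CPM, as a description without a test. Nearest to Trpv3 was Epgn, the Egfr ligand epigen, at a distance of 0.0865, where the median gene lay at 0.431. Then came Ap5b1 (0.111), Sqle, a cholesterol synthesis enzyme (0.122), Mtf1, a metal-responsive transcription factor (0.137), and Ralb, a small GTPase (0.139). Nearest to Piezo1 were Zfp1 (0.0462), Grwd1 (0.0479), Lsm12 (0.0537), Klf5, a transcription factor of proliferating epithelium (0.0558), and Tmem2, a cell surface protein tied to hyaluronan breakdown (0.0600), against a median of 0.324. The distance between Trpv3 and Piezo1 was 0.309, with animal 890 leading in Trpv3 and animal 899 in Piezo1, and neither was among the 5 nearest of the other.

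**Figure D5:**
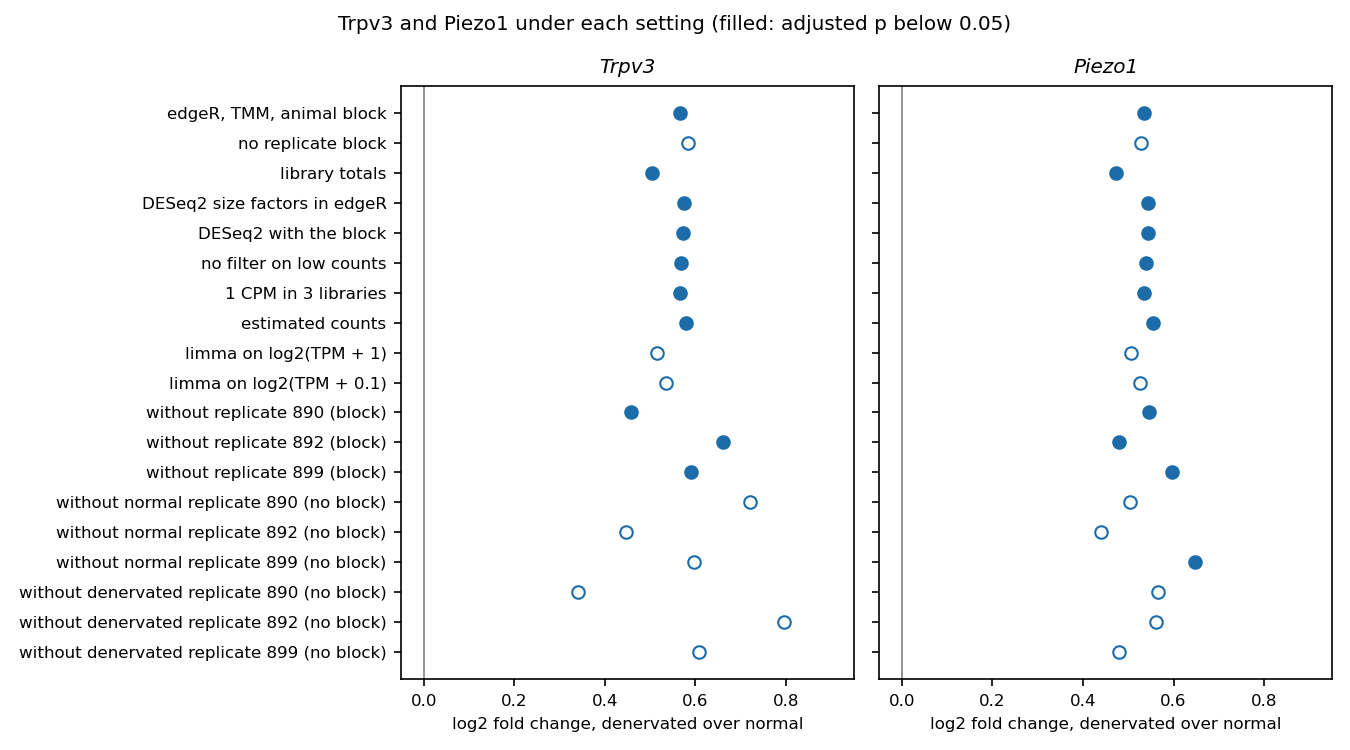
Log2 fold change of Trpv3 and Piezo1 under each setting of the analysis, filled where the adjusted p was below 0.05. All values lie above 0, from 0.34 to 0.79 for Trpv3 and from 0.44 to 0.65 for Piezo1, and the settings that keep the animal block in a count model are filled in both panels, as is Piezo1 without the normal library of animal 899.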

How the data were processed

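Polyadenylated RNA of 6 libraries was sequenced with a strand-keeping kit, per the labels' protocols. STAR 2.6.1a, Salmon 0.11.2 and the build mm10 are listed, without roles, per the submitters' processing notes. The authors deposited raw counts per gene, used for all tests. They deposited Salmon gene tables with estimated counts and TPM, per the file headers. Their deposited comparison table gives mean normalised counts (a signal), log2 fold changes, standard errors and test statistics (a score) and p-values, computed by the authors with a DESeq tool, per the name of the deposited table. How and with which annotation and strand setting reads were counted is not given in the sources used here.

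Counts were analysed in R 4.3.3 with edgeR 4.0.16 (TMM, genes kept by filterByExpr with a minimum count of 10 and a minimum total of 15, quasi-likelihood test, Benjamini-Hochberg adjustment over 12310 genes, threshold 0.05), with the animal as block. The 2 sides come from the same animal, per the labels' protocols; deviations from the group mean correlated across genes at 0.356 to 0.443 within an animal and at -0.278 to -0.0407 between animals. CPM are TMM-scaled. Alternatives were no block, other scalings and filters, DESeq2 1.42.0, rounded estimated counts, limma 3.58.1 on log2(TPM + 1) and log2(TPM + 0.1), and leaving out animals or libraries. All 10 channel genes are named. Of each related list reported here, the genes that passed are named or, where none did, the 2 with the smallest p. Mdfi, Areg, Ereg, Hbegf, Adam17 and the transglutaminases did not pass and are named outside that rule, as are Trpa1 and Trpm8. Also named are the 5 genes nearest in profile to a channel gene that passed. One list is not reported here. The channel genes and the lists were chosen with earlier results of these data known. Gene positions come from GENCODE vM21 (mm10). The 95% intervals come from the edgeR fit with the block. They include the spread of the differences within animals but not the differences in level between animals, which the block takes up. The limit of 3 counts for a 0 covers counting error only.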

Additional observations from a re-analysis of the deposited data

How the results depend on the processing

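In edgeR on all libraries, the calls of Trpv3 and Piezo1 needed the pairing of the sides. Without the replicate block, 0 genes and 0 of the channel genes passed, against 426 and 2 with it. limma with the block on log2(TPM + 1) and on log2(TPM + 0.1) called 1 gene each and 0 channel genes, with adjusted p from 0.331 to 0.385 for Trpv3 and Piezo1. The other count fits with the block kept both calls. Genes called numbered 987 without a filter on low counts, and 248 to 976 with an animal left out (385 without 890, 248 without 892, 976 without 899). With 1 library left out and no block, where the animals no longer pair, 0 to 42 genes and 0 to 1 channel genes passed, the 42 genes and the call of Piezo1 without the normal library of animal 899. Over 18 alternatives the log2 fold change ran from 0.34 to 0.79 for Trpv3 and from 0.44 to 0.65 for Piezo1, with adjusted p above the threshold in 9 and 8 of them. Trpv6 ran from -0.85 to -0.35 and passed in none. The sign changed for Trpv4 with library totals (-0.048), estimated counts (-0.014), limma on log2(TPM + 1) (-0.021) and log2(TPM + 0.1) (-0.031), and it ran from -0.15 to 0.24 with an animal or library left out. It changed for Trpc1 with library totals (-0.037), with a range of -0.023 to 0.097 when an animal or library was left out, and for Trpm4 without animal 892 (0.011), with a range of -0.13 to 0.011. The cause was not tested. Capn2 also lost its call with estimated counts (adjusted p = 0.0822 by edgeR). Library totals moved the median log2 fold change of all genes from -0.024 to -0.086. The filter of the main fit left Trpv1, Trpv2 and Piezo2 without a test. Without a filter on low counts all 10 channel genes were tested, and Trpv3 and Piezo1 alone passed.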
